A study of Mus musculus with 6 samples.

Results

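The 44 mouse genes whose symbols follow the pattern of collagen chains (Col, a type number, the letter a and a chain number) were taken from the 23282 rows of a transcriptome table of primary pancreatic acinar cells. They comprised 11 fibrillar, 6 basement membrane (type IV), 6 beaded filament (type VI) and 21 other collagen genes. The cKO group held 3 libraries of acinar cells from C57BL/6J mice of genotype ERRgamma -/-, a conditional knock-out of the orphan nuclear receptor encoded by Esrrg. The control group held 3 libraries of wild-type acinar cells from the same strain. In both groups the cells had been kept in Waymouth's medium to which serum, antibiotics, epidermal growth factor and an inhibitor of trypsin were added. RNA was read with QuantSeq, a method that yields short tags from transcript 3' ends. How and in which cells Esrrg was deleted, how pure the cells were, how long they were cultured and how old the mice were is not stated in the labels. They also do not say that the 3 libraries of a group came from separate animals, so the p-values cover the spread among these 6 libraries alone, which may be technical.

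Collagens are secreted or membrane-bound proteins whose chains carry repeats with glycine at regular steps and wind around each other into a rigid helix. Fibrillar chains assemble into the banded fibres that give tissue its tensile strength, type IV chains into the sheet beneath epithelial and endothelial cells, and type VI chains into beaded filaments that connect cells with the fibres around them. In the pancreas, fibrillar collagen is known chiefly as a product of fibroblasts and stellate cells, and it accumulates in fibrosis. Acinar cells, which make digestive enzymes, rest on a basement membrane that holds type IV collagen.

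The cKO libraries held 15.2 M to 16.96 M counts in total and the control libraries 23.0 M to 25.2 M (M, mega). The TMM scale (trimmed mean of M values, which puts most genes at no change) gave effective library sizes of 33.2 M to 60.0 M in cKO and 7.52 M to 8.49 M in control. Levels below are CPM (counts per M counts) of that effective size, and all changes are relative to the bulk of genes. Amounts by which genes rose or fell are log2 fold changes, save those written with -fold. On a scale of library totals every log2 fold change lies higher by a median of 3.26, and the direction of a called gene or list is that of the TMM scale unless said otherwise. The acinar markers Cpa1, Cela1, Pnlip, Prss2, Ctrb1 and Cel all fell. Their summed level was 12606 to 74804 CPM in cKO and 503524 to 599291 CPM in control. As a share of library totals their sum was 4.93%, 14.62% and 7.31% in cKO replicates 1, 2 and 3. In control that share was 16.97% to 18.44%, so the fall was much smaller on the scale of library totals. Among cKO libraries, replicate 2 had the highest acinar sum and the lowest collagen sum.

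Promoter sequences are shown for 4 genes on which the results turn. These are Col1a2 and Col3a1, the most abundant collagen transcripts, Col6a5, which had the largest fold change of the 28 tested genes, and Col7a1, the one member that fell. Each window runs from 250 bases before to 50 bases after the RefSeq start (GRCm38.p6), written 5′ to 3′ on the gene's own strand. Capitals mark matches, on either strand, to the CCAAT box (CCAAT), the TATA box (TATAAA), the GC box (GGGCGG) and the core of the element bound by estrogen-related receptors (AAGGTCA).
Col1a2, chr6:4505368-4505667, plus strand: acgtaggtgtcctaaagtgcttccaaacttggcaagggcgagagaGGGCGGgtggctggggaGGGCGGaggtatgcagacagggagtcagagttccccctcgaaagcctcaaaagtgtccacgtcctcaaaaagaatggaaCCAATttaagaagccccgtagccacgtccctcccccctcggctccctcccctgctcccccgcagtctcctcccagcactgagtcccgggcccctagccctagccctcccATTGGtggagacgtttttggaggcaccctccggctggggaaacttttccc
Col3a1, chr1:45311288-45311587, plus strand: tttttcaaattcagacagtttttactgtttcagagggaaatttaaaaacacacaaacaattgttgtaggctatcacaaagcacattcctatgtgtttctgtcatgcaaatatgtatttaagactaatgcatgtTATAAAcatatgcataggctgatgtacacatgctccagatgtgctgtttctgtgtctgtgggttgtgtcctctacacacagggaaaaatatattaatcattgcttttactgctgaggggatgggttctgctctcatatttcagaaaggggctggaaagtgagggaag
Col6a5, chr9:105960594-105960893, minus strand: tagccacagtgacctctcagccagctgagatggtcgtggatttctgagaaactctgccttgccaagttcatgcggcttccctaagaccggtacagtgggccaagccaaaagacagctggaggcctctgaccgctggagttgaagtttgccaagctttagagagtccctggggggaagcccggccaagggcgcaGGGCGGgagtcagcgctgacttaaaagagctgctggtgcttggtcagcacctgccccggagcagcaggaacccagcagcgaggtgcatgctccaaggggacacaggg
Col7a1, chr9:108953336-108953635, plus strand: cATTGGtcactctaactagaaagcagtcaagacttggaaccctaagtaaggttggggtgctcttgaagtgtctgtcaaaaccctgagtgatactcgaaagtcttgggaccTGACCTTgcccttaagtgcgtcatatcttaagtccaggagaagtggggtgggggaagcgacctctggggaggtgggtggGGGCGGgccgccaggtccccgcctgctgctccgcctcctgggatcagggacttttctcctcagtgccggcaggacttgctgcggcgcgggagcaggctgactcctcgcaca

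The 4 windows differ in their motifs. Col1a2 holds 2 CCAAT and 2 GC boxes, Col3a1 a TATA box alone, and Col6a5 a GC box alone, while Col7a1 holds a CCAAT box, a GC box and a core of the receptor element. Windows were available for 35 of the 44 collagen genes, as 38 windows. The GC box occurred in 60.5% of these windows and in 35.7% of all 32851 promoter windows of the genome table, and the CCAAT box in 34.2% and 37.4%. The TATA box occurred in 13.2% of collagen windows and 13.6% of all windows. The receptor core occurred in 5 collagen windows (13.2%, against 4.72% of all), those of Col7a1, Col11a1, Col23a1, Col24a1 and Col9a1. These are matches of letters only, and no binding was measured.

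Collagen transcripts were higher in the cKO cells. Summed over the 44 genes they reached 4997, 3416 and 4524 CPM in cKO replicates 1, 2 and 3, against 810, 771 and 823 CPM in control replicates 1, 2 and 3. Every cKO library lay above every control library, and the ratio of the means was 5.38. Of the 28 genes that passed the filter on low counts, 24 rose, 1 fell and 3 were not called by edgeR's quasi-likelihood test (adjusted p under 0.05), where 24.0% of all 13132 tested genes rose and 20.7% fell. The groups did not overlap for 25 of the 28 (56.2% of all tested genes). The median log2 fold change was 1.93 for the 28 genes and 0.10 for all tested genes. Of the 28, 9 passed the filter only through their cKO counts and could therefore hardly be called lower, and 18 passed in both groups. The 9 were Col24a1, Col4a4, Col4a5, Col4a6, Col6a6, Col12a1, Col8a1, Col8a2 and Col23a1. As in any bulk sample, more RNA per cell and more cells of a type cannot be told apart.

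**Figure D1:**
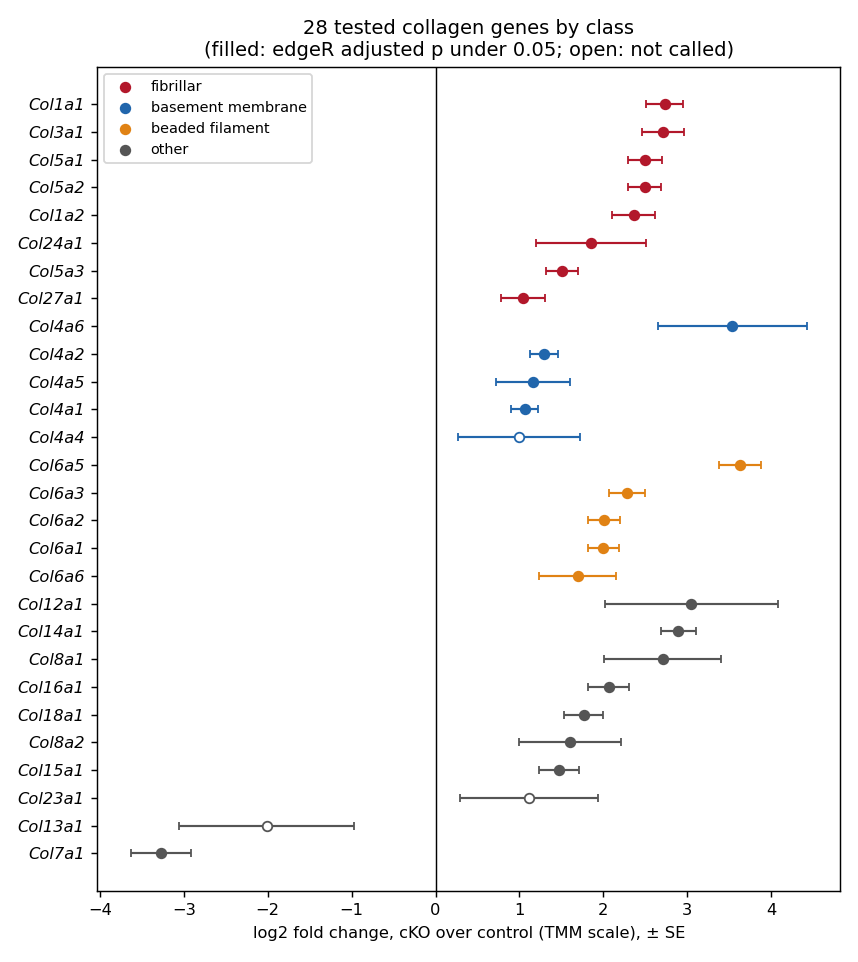
Log2 fold change of cKO over control (x axis, TMM scale) for the 28 tested collagen genes (y axis), grouped by class, with bars for the standard error. Filled points passed an adjusted p of 0.05 and open points did not. Fibrillar genes lie between 1.05 and 2.73, and Col7a1 alone is called below 0, at -3.27.

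The fibrillar class held the largest part of the rise. All 8 tested members rose, by 1.05 to 2.73 on the log2 scale (median 2.43), and the class sum was 4346, 2914 and 3861 CPM in cKO replicates 1, 2 and 3, against 642, 600 and 677 CPM in the controls. Together Col1a1, Col1a2 and Col3a1 made up 82.4%, 80.6% and 80.9% of all collagen counts in cKO replicates 1, 2 and 3, against 73.0%, 72.8% and 76.9% in control. They encode the chains of type I (Col1a1, Col1a2), the main collagen of scars and tendon, and of type III (Col3a1), which forms thinner fibres alongside it.

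Col1a2 (chromosome 6, 4504814 to 4541544) had 1823, 1146 and 1423 CPM in cKO replicates 1, 2 and 3, against 277, 275 and 301 CPM in control. It rose by 2.37 ± 0.26 on the log2 scale (SE; edgeR adjusted p = 5.18e-06), and all cKO libraries stood above all controls. Its rank among the 23282 rows, by mean level, was 29 in cKO and 142 in control.

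Col3a1 (chromosome 1, 45311538 to 45349706) had 1589, 1102 and 1558 CPM in cKO replicates 1, 2 and 3, against 223, 204 and 221 CPM in control. It rose by 2.71 ± 0.25 (SE; edgeR adjusted p = 1.46e-06), with no overlap of the groups. Col1a1 (chromosome 11, 94936224 to 94953042) had 707, 507 and 680 CPM in cKO, against 91.6, 83.2 and 111 CPM in control. It rose by 2.73 ± 0.22 (SE; edgeR adjusted p = 6.84e-07), the largest rise of the class. In all 3 genes cKO replicate 2 was the lowest of the cKO libraries and still stood above every control. Without that library the log2 fold changes were 2.88 for Col1a1, 2.53 for Col1a2 and 2.88 for Col3a1.

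Type V collagen is built into type I fibres and limits their thickness. Its chain gene Col5a1 had 94.3, 65.5 and 80.7 CPM in cKO replicates 1, 2 and 3, against 17.1, 10.6 and 14.9 CPM in control, and rose by 2.50 ± 0.20 (SE; edgeR adjusted p = 7.57e-07). Col5a2, the partner chain, rose by 2.49 ± 0.20, with levels that averaged 66.8 ± 13.0 CPM in cKO and 11.9 ± 2.13 CPM in control (SD, n = 3 each). Col5a2 lies tail to tail with Col3a1 on chromosome 1. Col5a3 averaged 39.1 ± 9.34 CPM in cKO and 13.8 ± 1.66 CPM in control (SD, n = 3 each) and rose by 1.51 ± 0.19.

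The minor fibrillar genes rose less or from few counts. Col27a1, a cartilage-associated chain, averaged 7.53 ± 1.15 CPM in cKO and 3.65 ± 0.675 CPM in control (SD, n = 3 each; log2 fold change 1.05 ± 0.26, SE). Col24a1 had 131, 43 and 87 counts in cKO replicates 1, 2 and 3 and 2, 8 and 1 counts in control, with a fold change of 1.85 ± 0.66 (SE; edgeR adjusted p = 0.0326). It lost its call without cKO replicate 1 or 3 or control replicate 1 or 3 (adjusted p = 0.0730 to 0.129) and in thinned libraries (0.0942), and its fold change was 3.07 without control replicate 2. The cartilage chain genes Col2a1, Col11a1 and Col11a2 had 2, 10 and 12 counts in the 6 libraries together and were not tested.

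**Figure D2:**
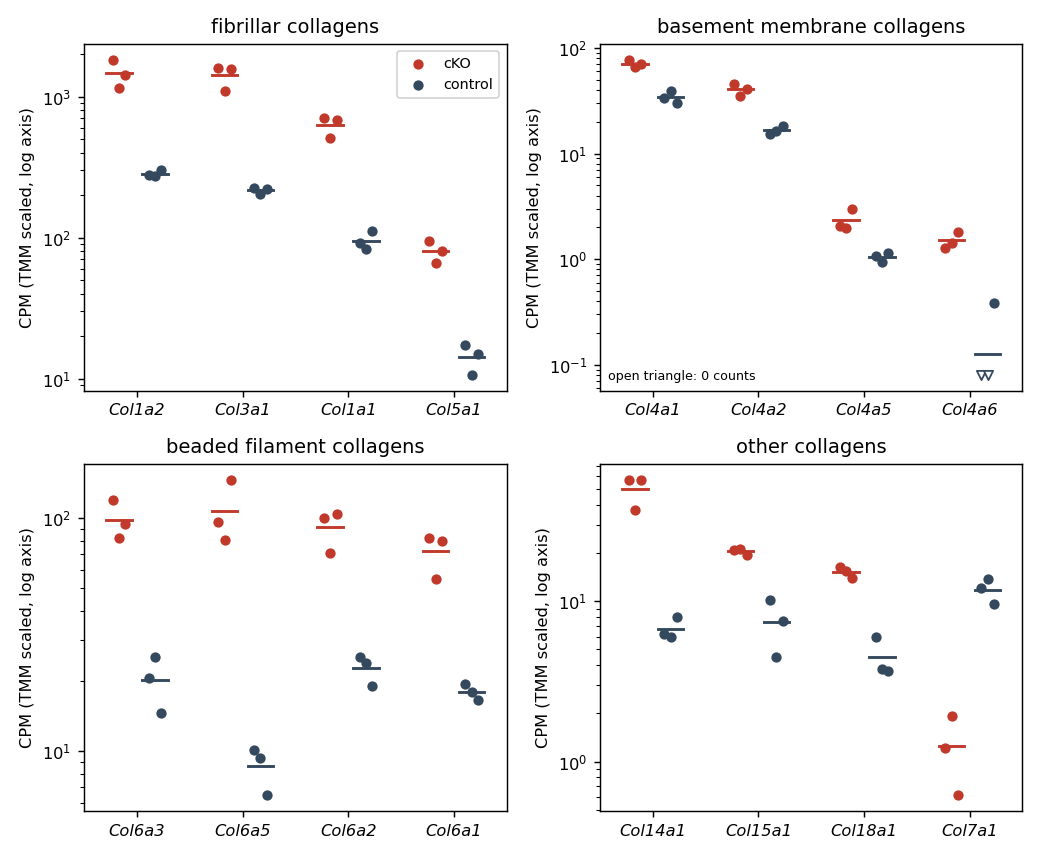
Level in each library (y axis, TMM-scaled CPM on a log axis) of 4 genes per class, with cKO libraries left of control libraries and short lines for group means. Open triangles are libraries with 0 counts, drawn at the foot of the axis. The 16 genes were not picked by level alone, and Col4a4, whose groups overlap, is not shown. The 3 cKO libraries stand above the 3 controls for 15 of the 16 genes, and below them for Col7a1. Among all tested genes, cKO stood above in 30.7% and below in 25.4%.

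Basement membrane chains rose as well, with smaller fold changes for the abundant Col4a1 and Col4a2 than for Col1a1 (their ratio is compared further on). Of 5 tested members, 4 rose, 0 fell and 1 was not called. Among them, Col4a4, Col4a5 and Col4a6 passed the filter only through their cKO counts and could hardly be called lower. The class sum was 128, 105 and 117 CPM in cKO replicates 1, 2 and 3, against 50.8, 56.3 and 50.04 CPM in control, a ratio of the means of 2.23. The chains of the common type IV network are encoded by Col4a1 and Col4a2, which lie head to head on chromosome 8 (11198423 to 11312826 and 11312805 to 11449287). Col4a1 had 77.3, 66.0 and 70.3 CPM in cKO replicates 1, 2 and 3, against 33.2, 38.9 and 30.1 CPM in control. It rose by 1.06 ± 0.16 (SE; edgeR adjusted p = 7.88e-05). Col4a2 had 45.8, 35.0 and 40.6 CPM in cKO, against 15.3, 16.3 and 18.0 CPM in control. It rose by 1.29 ± 0.17 (SE; edgeR adjusted p = 2.28e-05). For both genes the groups did not overlap.

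The other type IV chains, known from kidney, lung and smooth muscle basement membranes, had few counts, above all in control. Col4a5, head to head with Col4a6 on the X chromosome, had 122, 66 and 179 counts in cKO replicates 1, 2 and 3 and 8, 8 and 9 in control, with a fold change of 1.16 ± 0.44 (SE; edgeR adjusted p = 0.0426). It lost its call with any 1 library left out except cKO replicate 2 (adjusted p = 0.0656 to 0.230), and also with no filter (0.0537) and in thinned libraries (0.0770). Col4a6 had 76, 47 and 109 counts in cKO and 0, 0 and 3 in control, with a fold change of 3.54 ± 0.89 (SE; edgeR adjusted p = 0.00460). Its size rests on those 3 control counts and was 2.94 without control replicate 2, and without control replicate 3 no control count remains.

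Col4a4 did not pass, with 99, 34 and 37 counts in cKO and 9, 2 and 2 in control (log2 fold change 1.00 ± 0.72, SE; edgeR adjusted p = 0.284). Its value was 2.16 without control replicate 1, still not called. Col4a3, its head-to-head neighbour on chromosome 1, had 25, 1 and 14 counts in cKO and 0, 0 and 1 in control and was not tested.

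The beaded filament genes rose in all 5 tested cases, by 1.70 to 3.64 (median 2.01), with a class sum of 403, 298 and 430 CPM in cKO replicates 1, 2 and 3, against 77.6, 80.7 and 57.4 CPM in control. Type VI collagen is assembled from the products of Col6a1, Col6a2 and a longer chain, usually that of Col6a3. Col6a3 had 119, 82.3 and 93.9 CPM in cKO, against 20.6, 25.4 and 14.6 CPM in control, and rose by 2.28 ± 0.21 (SE; edgeR adjusted p = 1.60e-06). Col6a2 had 100.2, 71.0 and 104 CPM in cKO, against 25.3, 23.9 and 19.1 CPM in control, and rose by 2.01 ± 0.19 (SE; edgeR adjusted p = 1.54e-06). Col6a1, which lies on the same strand of chromosome 10 as Col6a2, had 81.8, 54.5 and 79.6 CPM in cKO, against 19.4, 17.9 and 16.6 CPM in control. It rose by 2.0 ± 0.18 (SE; edgeR adjusted p = 1.45e-06). For all 3 chains every cKO library stood above every control.

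Col6a5, an alternative long chain best known from skin, had the larger rise. It was counted 5679, 2674 and 8721 times in cKO replicates 1, 2 and 3 and 76, 79 and 51 times in control. In CPM this was 95.7, 80.7 and 145 in cKO, against 10.1, 9.31 and 6.48 in control. It rose by 3.64 ± 0.25 on the log2 scale (SE; edgeR adjusted p = 6.22e-07), with no overlap, and by 3.82 without cKO replicate 2. In cKO its mean level of 107 CPM was close to that of Col6a3 (98.4 CPM), while in control it was 8.63 CPM against 20.2 CPM for Col6a3. Each transcript gives 1 tag in this assay, so levels of different genes are set side by side without division by length, though an unannotated 3' end can lower a gene's count.

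Col6a6 and Col6a4 lie beside Col6a5 on the same strand of chromosome 9. Col6a6 had 362, 321 and 415 counts in cKO and 17, 35 and 4 in control and rose by 1.70 ± 0.46 (SE; edgeR adjusted p = 0.00937). Without control replicate 2 its log2 fold change was 2.46. Col6a4 had 2, 11 and 21 counts in cKO and 0, 0 and 1 in control and was not tested. The 3 neighbours thus stood at very different levels, and the test called the 2 that passed the filter.

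Among the 21 other collagens, 10 were tested, of which 7 rose, 1 fell and 2 were not called. FACIT collagens have short helical segments between other domains and attach to the surface of fibres. Col14a1 had 56.7, 37.1 and 57.0 CPM in cKO replicates 1, 2 and 3, against 6.25, 6.01 and 8.0 CPM in control. It rose by 2.90 ± 0.21 (SE; edgeR adjusted p = 6.22e-07). Col16a1 had 18.2, 16.3 and 19.7 CPM in cKO, against 3.19, 3.65 and 6.10 CPM in control. It rose by 2.07 ± 0.24 (SE; edgeR adjusted p = 1.06e-05). Neither gene overlapped between the groups.

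Col12a1, also a FACIT chain, was rare, with 34, 31 and 41 counts in cKO and 0, 0 and 2 in control. Its fold change was 3.05 ± 1.03 (SE; edgeR adjusted p = 0.0258), and it lost its call without cKO replicate 2 or 3 or control replicate 1 or 2 (adjusted p = 0.0568 to 0.104). Without control replicate 2 it was 2.46, and without control replicate 3 no control count remains. Col9a1, Col9a2, Col9a3, Col19a1, Col20a1 and Col22a1 had 1 to 39 counts in all libraries together and were not tested. The 3' exon of Col9a3 overlaps Tcfl5 on the other strand, so its counts are uncertain.

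The multiplexins Col15a1 and Col18a1 lie in the zone of the basement membrane, and Col18a1 carries the precursor of endostatin. Col15a1 had 20.7, 21.1 and 19.5 CPM in cKO replicates 1, 2 and 3, against 10.2, 4.48 and 7.49 CPM in control. It rose by 1.47 ± 0.24 (SE; edgeR adjusted p = 0.000180). Col18a1 had 16.2, 15.4 and 13.99 CPM in cKO, against 5.98, 3.77 and 3.68 CPM in control. It rose by 1.77 ± 0.23 (SE; edgeR adjusted p = 2.78e-05). The SD was 0.834 CPM in cKO and 2.88 CPM in control for Col15a1, and 1.13 and 1.30 CPM for Col18a1. Control counts were few, at 77, 38 and 59 for Col15a1 and 45, 32 and 29 for Col18a1. For both genes the groups did not overlap. The 3' exon of Col18a1 overlaps Slc19a1 on the other strand, and the strand setting of the counting is not given.

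The hexagonal network genes Col8a1 and Col8a2, known from vessel walls and cornea, both rose. Both passed the filter only through their cKO counts and could hardly be called lower. Col8a1 had 141, 63 and 95 counts in cKO and 3, 0 and 4 in control (log2 fold change 2.71 ± 0.70, SE; edgeR adjusted p = 0.00550). Its value was 2.10 without control replicate 2 and 3.35 without control replicate 3. Col8a2 had 85, 60 and 62 counts in cKO and 5, 3 and 3 in control (1.61 ± 0.61, SE; edgeR adjusted p = 0.0425). It lost its call without any 1 cKO library or control replicate 2 or 3 (adjusted p = 0.0757 to 0.129), with no filter (0.0520) and in thinned libraries (0.0594). Col10a1, the growth plate member, had 1 count in all and was not tested, and its 3' exon overlaps Nt5dc1 on the other strand.

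Col7a1 was the exception. It encodes the collagen of the anchoring fibrils that tie an epithelial basement membrane to the tissue beneath, and it lies on chromosome 9 (108953586 to 108984875). It was counted 72, 64 and 37 times in cKO replicates 1, 2 and 3 and 91, 116 and 76 times in control. In CPM this was 1.21, 1.93 and 0.617 in cKO, against 12.1, 13.7 and 9.65 in control, with all cKO libraries below all controls. It fell by 3.27 ± 0.36 (SE; edgeR adjusted p = 7.22e-06) relative to the bulk of genes. Per library total it stood at 3.59 CPM in cKO and 3.88 CPM in control, a log2 fold change of -0.11 that was not called (edgeR adjusted p = 0.843). So its decline holds against the bulk of genes and not as a share of the library.

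Transmembrane collagens are anchored in the plasma membrane of epithelial, nerve and muscle cells. Col13a1 had 0, 26 and 17 counts in cKO and 3, 17 and 13 in control (log2 fold change -2.01 ± 1.04, SE; edgeR adjusted p = 0.137). Without cKO replicate 2 it was -3.22 and passed (adjusted p = 0.0195), without cKO replicate 1 it was -1.37, and on library totals it was 0.92. Col23a1 had 45, 15 and 59 counts in cKO and 4, 0 and 4 in control (1.12 ± 0.83, SE; edgeR adjusted p = 0.293). Without control replicate 2 its value was 0.51. Col17a1, the hemidesmosome collagen, had 12, 5 and 3 counts in cKO and 0 in each control library. Its cKO mean was 1.07-fold the level of 3 counts over the control group (0.126 CPM). Such a ratio leaves out the error of the cKO mean.

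Col25a1 was not counted in any library, which allows up to 0.0197 CPM over the cKO group and 0.126 CPM over the control group. Col26a1 had 7, 0 and 16 counts and Col28a1 had 15, 0 and 7 counts in cKO, and both had 0 in each control library. Of the 16 untested genes, 10 had 0 counts in all controls. Among those 10, only Col17a1 and Col26a1 (1.02-fold that value) had cKO means above 3 counts over the control group. For the others, 0 control counts do not place the control level below that of cKO. Intervals and floors cover counting error only, since the labels describe no molecular identifiers to remove PCR copies.

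The make-up of the collagen pool does not depend on the library scale. Fibrillar genes took 87.0% (95% interval 86.9 to 87.1), 85.3% (85.1 to 85.5) and 85.3% (85.2 to 85.5) of collagen counts in cKO replicates 1, 2 and 3. In control replicates 1, 2 and 3 they took 79.2% (78.2 to 80.2), 77.7% (76.7 to 78.7) and 82.3% (81.3 to 83.2). The means were 85.9% ± 0.960 in cKO and 79.7% ± 2.34 in control (SD, n = 3 each). The 3 cKO libraries were thus richer in fibrillar chains than any control.

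Basement membrane genes took 2.57% (2.51 to 2.63), 3.09% (2.99 to 3.19) and 2.58% (2.52 to 2.64) in cKO, against 6.27% (5.67 to 6.91), 7.30% (6.68 to 7.96) and 6.08% (5.51 to 6.69) in control. Their share was lower in each cKO library although their level was higher. The other collagens took 2.62% ± 0.253 in cKO and 4.71% ± 0.224 in control (SD, n = 3 each). Beaded filament genes took 8.77% ± 0.723 in cKO and 9.01% ± 1.81 in control, a difference within the spread. All intervals are exact Clopper-Pearson intervals of single libraries. No test was run on these class shares.

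**Figure D3:**
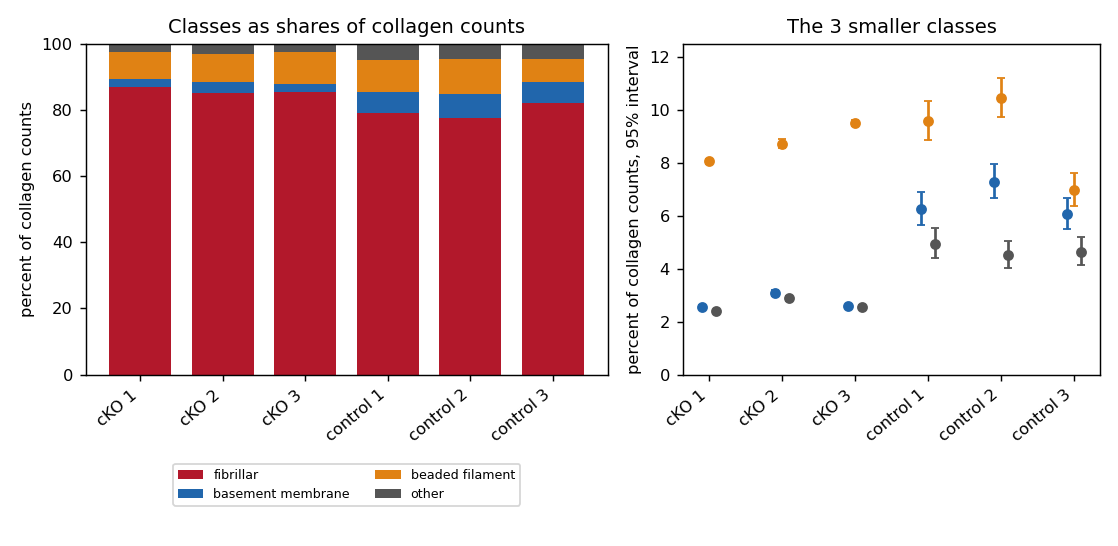
Share of all collagen counts (y axis, percent) taken by each class in each library (x axis), as stacked bars on the left and as points with exact 95% binomial intervals for the 3 smaller classes on the right. The basement membrane share is 2.57% to 3.09% in cKO and 6.08% to 7.30% in control.

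Ratios between chains within a library were compared for 7 pairs with an exact permutation test (2-sided), whose smallest possible p is 0.1 at this number of libraries. Most pairs compare chains of 1 protein type. The log2 ratio of Col5a1 to Col5a2 was 0.27 ± 0.13 in cKO and 0.24 ± 0.19 in control (SD, n = 3 each; exact p = 0.9). That of Col6a1 to Col6a2 was -0.35 ± 0.05 in cKO and -0.33 ± 0.12 in control (exact p = 0.8). That of Col3a1 to Col1a1 was 1.16 ± 0.04 in cKO and 1.19 ± 0.17 in control (exact p = 0.9).

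Col4a1 to Col4a2 stood at 0.82 ± 0.08 in cKO and 1.03 ± 0.27 in control (exact p = 0.4), and Col6a3 to Col6a1 at 0.46 ± 0.19 in cKO and 0.13 ± 0.35 in control (exact p = 0.2). In these 5 pairs the groups overlapped, which does not show that the proportions were equal.

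The groups parted in the other 2 pairs. The type I protein contains more chains from Col1a1 than from Col1a2, yet Col1a1 tags were the fewer in every library. Their log2 ratio was -1.37, -1.18 and -1.06 in cKO replicates 1, 2 and 3, against -1.59, -1.72 and -1.44 in control, a difference of 0.38 (exact p = 0.1; 0.35 adjusted over the 7 ratios). The log2 ratio of Col1a1 to Col4a1 was 3.19, 2.94 and 3.27 in cKO, against 1.46, 1.09 and 1.87 in control. The difference was 1.66, with all cKO libraries above all controls (exact p = 0.1; 0.35 adjusted over the 7 ratios). The fibrillar chain thus stood higher against the basement membrane chain in each cKO library than in any control. A design of this size cannot pass 0.05.

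**Figure D4:**
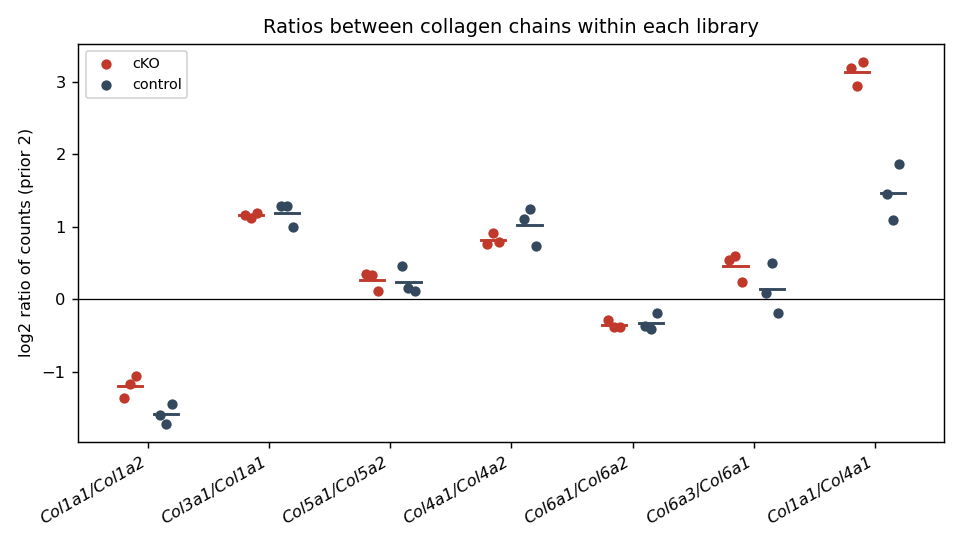
Log2 ratio of counts between 2 collagen genes in each library (y axis) for 7 pairs (x axis), with cKO left of control and short lines for group means. The groups do not overlap for Col1a1/Col1a2 and for Col1a1/Col4a1, where cKO averages 3.14 and control 1.47.

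Genes that make, process and bind collagen were counted from a list of 43, of which 39 were tested. In all, 26 rose, 2 fell and 11 were not called, with a median log2 fold change of 1.32 (0.10 for all tested genes). Of all tested genes 24.0% rose and 20.7% fell. Here too, some genes passed the filter only through their cKO counts and could hardly be called lower. Among those that rose, these were Tll1, Adamts3, Pcolce2, Loxl4, Itga11, Lair1, Mrc2, P3h1, P3h3 and Fkbp14. Of the proteases that free fibrillar collagen from its propeptides and their enhancers, 6 of 7 tested genes rose. Adamts2, which cuts the amino end, averaged 39.99 ± 3.12 CPM in cKO and 6.53 ± 0.281 CPM in control (SD, n = 3 each) and rose by 2.61 ± 0.17 (SE; edgeR adjusted p = 4.71e-07). Bmp1, the protease for the carboxyl end, rose by 2.37 ± 0.23, and its enhancers Pcolce and Pcolce2 rose by 2.14 ± 0.18 and 3.30 ± 0.29. The related proteases Adamts3 and Tll1 also rose. Tll1 was at 0 in all controls, and its cKO mean was 3.99-fold the level of 3 counts over the control group.

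Lysyl oxidases, which cross-link the finished fibres, rose in 4 of 5 cases, where 24.0% of all tested genes rose. These were Loxl1 (2.20 ± 0.19), Loxl2 (2.23 ± 0.19), Lox (1.82 ± 0.28) and Loxl4 (2.62 ± 0.81, with 1 to 2 counts in each control library). Loxl3 was not called (-0.36 ± 0.22; edgeR adjusted p = 0.194). Of 8 tested collagen receptors, 5 rose and 0 fell, where 24.0% of all tested genes rose and 20.7% fell. Ddr2, the tyrosine kinase receptor for fibrillar collagen on fibroblasts, averaged 56.9 ± 11.8 CPM in cKO and 13.7 ± 1.47 CPM in control (SD, n = 3 each; log2 fold change 2.06 ± 0.19). Its epithelial relative Ddr1 was not called (-0.25 ± 0.21; edgeR adjusted p = 0.361). Lair1, a leukocyte receptor, rose by 2.34 ± 0.37, Itgb1 by 0.64 ± 0.16 and Itga11 by 3.87 ± 1.01, with 0, 0 and 2 counts of Itga11 in control. The endocytic receptor gene Mrc2 was the fifth.

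Helpers of synthesis inside the endoplasmic reticulum went both ways, with 11 that rose and 2 that fell of 19. The shares over all tested genes were 24.0% and 20.7%. Plod2, a lysyl hydroxylase that sets the kind of cross-link, averaged 23.3 ± 3.57 CPM in cKO and 3.97 ± 0.772 CPM in control (SD, n = 3 each) and rose by 2.55 ± 0.22 (SE; edgeR adjusted p = 9.93e-07). The collagen chaperone gene Serpinh1 rose by 1.62 ± 0.18 and Crtap, a part of the prolyl 3-hydroxylase complex, by 1.91 ± 0.22. The 2 that fell were Ppib (-2.42 ± 0.23; edgeR adjusted p = 2.04e-06) and P4hb (-1.79 ± 0.24; edgeR adjusted p = 3.82e-05), which serve protein folding in general beside collagen. Ppib averaged 71.3 ± 24.2 CPM in cKO and 382 ± 39.3 CPM in control (SD, n = 3 each), with no overlap. Per library total both stood higher in cKO, Ppib at 209.7 CPM against 125.5 CPM in control and P4hb at 602 CPM against 232 CPM.

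On the TMM scale, the fibroblast, mesothelial and macrophage marker lists rose with the collagens, while the endothelial, pericyte and islet lists did not. Of 8 fibroblast and stellate cell markers 7 rose and 0 fell (Pdgfrb was not called), where 24.0% of all tested genes rose and 20.7% fell. The sum of the 8 was 1075, 909 and 1140 CPM in cKO replicates 1, 2 and 3, against 212, 191 and 211 CPM in control, a ratio of the means of 5.09. Most of these marker counts were Dcn (51934 of 63825 in cKO replicate 1, 1235 of 1595 in control replicate 1), so ratios to the list are largely ratios to Dcn. The log2 fold changes of the 8 markers ran from 0.68 (Pdgfrb) to 2.77 (Lum). Per fibroblast marker count, fibrillar counts were 4.04, 3.21 and 3.39 in cKO and 3.03, 3.14 and 3.21 in control, which overlap. Basement membrane counts per fibroblast marker count were 0.120, 0.116 and 0.102 in cKO and 0.239, 0.295 and 0.237 in control, which do not. Per endothelial marker count they ran the other way, at 6.48, 3.71 and 5.35 in cKO and 1.2, 1.35 and 1.15 in control. The part of cell make-up in the collagen changes was not tested.

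Of the further lists, mesothelial markers rose in 4 of 4 cases (sum 90.1 to 110 CPM in cKO, 17.5 to 23.4 CPM in control) and macrophage markers in 6 of 6 (244 to 504 CPM in cKO, 75.6 to 98.4 CPM in control). Beside these and the following lists stand 24.0% of all tested genes that rose and 20.7% that fell. Endothelial markers fell in 3 of 6 and rose in 0 (19.8 to 28.4 CPM in cKO, 41.8 to 43.7 CPM in control), though as a share of the library their sum was higher in cKO (0.00555% to 0.00798%, against 0.00131% to 0.00150% in control). Of 4 pericyte markers 0 were called (6.55 to 8.08 CPM in cKO, 4.39 to 7.49 CPM in control), as of 4 islet markers (392.3 to 807 CPM in cKO, 545 to 894 CPM in control). The duct keratin genes Krt19 and Krt7 rose by 1.03 ± 0.17 and 1.2 ± 0.29 (SE). Of 4 Schwann cell markers 2 were tested and 0 called (list sum 1.84 to 2.62 CPM in cKO, 0.471 to 0.762 CPM in control). For both tested markers every cKO library stood above every control, as for 30.7% of all tested genes. Of 4 lymphocyte markers 3 were tested and 0 called (1.81 to 3.62 CPM in cKO, 0.236 to 1.73 CPM in control). The 3 adipocyte markers were too low to test (0.0168 to 1.45 CPM in cKO, 0 to 0.254 CPM in control). Sox10 and Cidec were at 0 in all controls. Of the markers called higher, Des, Aif1 and Upk3b passed the filter only through their cKO counts and could hardly be called lower.

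**Figure D5:**
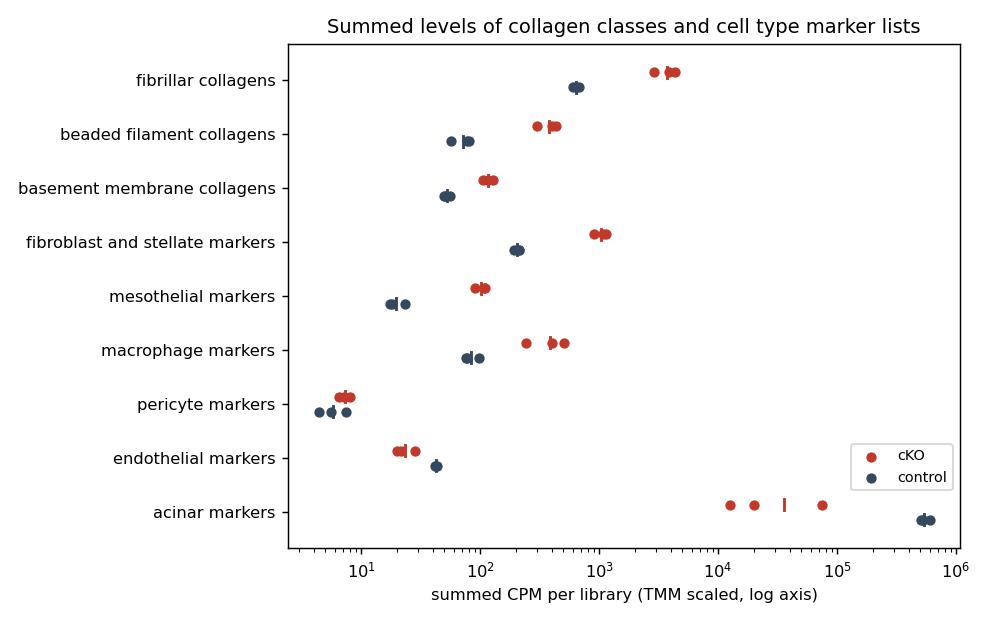
Summed level per library (x axis, TMM-scaled CPM on a log axis) of 3 collagen classes and 6 lists of cell type markers (y axis), with cKO above control in each row and short lines for group means. Fibrillar collagens and fibroblast markers stand higher in all cKO libraries, and endothelial and acinar markers lower on this scale, while per library total the endothelial sum is higher in cKO.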

How the data were processed

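For each library the authors deposited a table of gene symbols with unnormalized counts. Per the labels' protocols, a Lexogen QuantSeq kit was used on 500 ng of RNA. The submitters' processing notes name Bowtie2, edgeR, mm10 and GRCm38, without roles. The counter, annotation and strand setting are not given. Each table held 23282 rows, and all collagen symbols stood on 1 row. Coordinates are those of GENCODE M21 (GRCm38).

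Testing used edgeR 4.0.16 (R 4.3.3), with glmQLFTest on a robust glmQLFit, after filterByExpr at its defaults (minimum count 10, minimum total 15) and TMM scaling. The threshold was a Benjamini-Hochberg adjusted p of 0.05 over all 13132 tested genes. The SE is the size of the log2 fold change divided by the square root of F. The fit was tested on simulated data with 50 changed genes for each size and direction. It recovered 46% of log2 rises of 1 and 32% of falls of 1. For a size of 2 it recovered 94% of rises and 76% of falls. A gene that was not called may therefore still have changed. Chain ratios used log2 of the count plus 2. A library held 15.2 M to 25.2 M counts, and 3 counts amount to 0.0500 to 0.0905 CPM in a cKO and 0.353 to 0.399 CPM in a control library.

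Collagen members, classes and gene lists were chosen with earlier results of these data known. Values by library are given for the 4 most abundant genes of each class, the largest changes and every gene called lower, and for up to 4 genes of each processing list by p. P4hb and single members such as Ddr1 and Loxl3 were named after their values were seen, as were low genes shown by their counts. The full list of duct markers is not reported here. The alternatives were DESeq2 1.42.0, RLE factors, library totals, 2 other filters, thinned libraries, no robust estimation, a prior of 5 counts, a replicate block and each library left out.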

Additional observations from a re-analysis of the deposited data

How the results depend on the processing

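Of the 24 rises, 20 kept their call in every setting that tested the gene, and Col24a1, Col4a5, Col12a1 and Col8a2 lost it in some. The count of rises was 20 to 22 with any 1 library left out (22 without cKO replicate 2), 26 on library totals, 16 when each gene had to reach 10 CPM in 3 libraries, 22 with no filter, 21 in thinned libraries, and 24 in DESeq2, with RLE factors and without robust estimation. The count of falls was 0 on library totals, 0 among genes of at least 10 CPM, where Col7a1 was not tested, and 1 to 2 with any 1 library left out. Among genes of at least 10 CPM, 2 basement membrane and 4 other collagens rose, since fewer genes were tested. Same-numbered libraries did not deviate together (correlations 0.01, -0.03 and -0.01), and the labels state no pairing. With 3 libraries per group these correlations cannot exclude a pairing. With the replicate number as a replicate block, 21 genes rose and 2 fell, Col7a1 and Col13a1. The calls of Col4a5, Col12a1 and Col8a2 were lost in that fit (adjusted p = 0.0880, 0.0575 and 0.0937). On library totals Col4a4 and Col23a1 also passed, and over all tested genes 12654 were higher and 53 lower, against 3152 and 2716 on the TMM scale.

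With any 1 library left out, the difference in the beaded filament share ran from -1.25 to 0.49 percentage points. That in log2 ratio ran from -0.13 to 0.020 for Col3a1/Col1a1, -0.039 to 0.14 for Col5a1/Col5a2 and -0.068 to 0.042 for Col6a1/Col6a2, and 1.47 to 1.86 for Col1a1/Col4a1. Depth limits the genes with under 10 control counts, whose fold changes rest on few reads.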
